A study of Mus musculus with 14 samples.

Results

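The genes described here are 8 complement components and regulators, C1ra, Serping1, C2, C4b, C3, Cfb, Cd55 and Cd59a, chosen by name from the complement system. They and the further gene lists below were chosen with earlier results of these data known. Their shares and medians beside those of all genes are therefore descriptions only. Every probe set annotated to any of them was taken, which gave 14 of the 45101 probe sets on the array. Of the 8 genes, 6 had a probe set of their own and entered the test with 13579 genes in all. C4b was annotated only on a probe set shared with its near-identical copy C4a, and the annotation used here assigns no probe set to C3, so C3 has no value. The 11 single-gene and 3 several-gene probe sets differed in signal, and 12 of the 14 passed the filter for dim probe sets, which asks for a value above the 40th percentile of the array on at least 4 of 14 arrays. The cells were muscle precursors of C57BL/6 mice, sorted as CD45-, Ter119-, Sca-1-, CD29+ and Cxcr4+, a gate used to enrich satellite cells, the stem cells of skeletal muscle. The ages were young (2 months, 5 arrays), middle-aged (12 months, 4 arrays) and aged (24 months, 5 arrays), and no array carried a treatment or a genetic alteration. Whether the arrays stand for different animals is not in the labels, and the p-values therefore cover only the spread among these samples, which may be partly technical.

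Complement is a cascade of proteases and binding proteins that marks targets for removal and can lyse cells. In the classical pathway C1q binds a target and activates the proteases C1r and C1s, which cleave C4 and C2 to build the enzyme that cleaves C3. Factor B, encoded by Cfb, does the work of C2 in the alternative pathway, and C1 inhibitor (Serping1), CD55 and CD59 hold the cascade in check. Most components are made in the liver, but fibroblasts and other tissue cells also produce them, and C1q has been linked to Wnt signalling and poorer regeneration in aged mouse muscle.

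Apart from age, the arrays were divided by their side of the axis of largest variance, which leaves most of the variance to other axes. The first principal component of the age-centred values (31.5% of their variance) put 8 arrays on one side, called set 1, with young 1, 3, 4, middle-aged 2 to 4 and aged 1, 2. The other 6 form set 2, with young 2, 5, middle-aged 1 and aged 3 to 5. No label names this split, which comes from the values themselves, so the main results are also given inside each set. A split along the spread of the tested values narrows the spread inside each set. The p-values within a set are therefore not independent support. The satellite cell marker Pax7 was above the filter on all 14 arrays, while the leukocyte gene Ptprc and the endothelial gene Pecam1 lay below the 40th percentile on all 14. Some other genes of those cells were above it, with Lyz2 from 6.25 to 9.48, Cd14 from 5.196 to 7.755 and the endothelial gene Tek from 5.86 to 8.20 over the arrays. Others lay near that percentile, which ran from 3.79 to 3.96. The macrophage gene Adgre1 read 3.65 to 4.36, and the endothelial gene Cdh5 averaged 3.87 in aged and 3.84 in young cells. C1qb, C1qc and the endothelial gene Emcn had no probe set that passed the filter. The defining markers of fibro-adipogenic cells (Pdgfra), tenocytes (Tnmd), myofibres (Acta1) and pericytes (Rgs5) were above the 40th percentile on all 14 arrays too.

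C1ra encodes the first protease of the classical pathway and C1s1 its partner, and their genes are neighbours in the RefSeq annotation. C1s1 belongs to the wider list of complement genes. The 250 bases before the annotated start of each are shown, because both transcripts rose in aged cells. They are read 5′ to 3′ on the gene's strand, from RefSeq promoter windows on GRCm38.p6, with the matches to any of 5 motifs in capitals.
C1ra, chr6:124512371-124512620, plus strand: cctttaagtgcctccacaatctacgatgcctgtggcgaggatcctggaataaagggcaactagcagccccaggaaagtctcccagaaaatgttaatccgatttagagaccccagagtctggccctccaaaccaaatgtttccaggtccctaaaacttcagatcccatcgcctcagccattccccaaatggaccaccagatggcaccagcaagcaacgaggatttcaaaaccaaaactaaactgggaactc
C1s1, chr6:124542360-124542609, minus strand: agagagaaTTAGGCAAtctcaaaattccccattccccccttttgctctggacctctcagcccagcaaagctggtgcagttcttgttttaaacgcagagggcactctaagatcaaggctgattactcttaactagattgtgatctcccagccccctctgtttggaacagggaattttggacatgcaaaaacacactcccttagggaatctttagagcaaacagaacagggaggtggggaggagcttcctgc
The motifs were those of C/EBP (TTGCNNAA), of STAT factors (GAS, TTCNNNGAA), of interferon regulatory factors (the ISRE core, GAAA and GAAA with any 2 bases between them), of AP-1 (TGANTCA) and of NF-kappaB (the kappaB motif), searched on both strands. The C1s1 window held 1 match, to C/EBP, at bases 242 to 235 before the start, and the window of its other annotated start, 38 bases downstream, held none. The C1ra window held no match to these letters. Of all 32851 promoter windows of this length, 9.56% held the C/EBP letters, 7.02% GAS, 2.98% the ISRE core, 6.75% AP-1 and 3.9% the kappaB motif. Of the 8 complement genes, 4 had a window in the table. Those of C3 (C/EBP, bases 45 to 38 before the start) and Cd59a (ISRE core, bases 187 to 178) held 1 match each and that of Cd55 none. C2, Cfb, C4b and Serping1 were not in the table.

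Aged against young cells is the widest contrast of the design. In aged cells C1ra rose 4.32-fold and the C4a/C4b probe set 3.74-fold, while C2 rose 2.96-fold on 1 of its 3 probe sets and was not called without shared-sequence probe sets. No regulator among the 8 genes passed the test in either direction. Of the 6 genes tested, 2 rose and 0 fell, against 3.05% of all genes that rose and 1.25% that fell. Their median log2 change was 0.44, and that of all genes was -0.05. As the genes were chosen with earlier results of these data known, these values do not test them as a group. In sorted cells measured in bulk, a larger share of cells that carry a transcript and more of it per cell cannot be told apart.

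**Figure D1:**
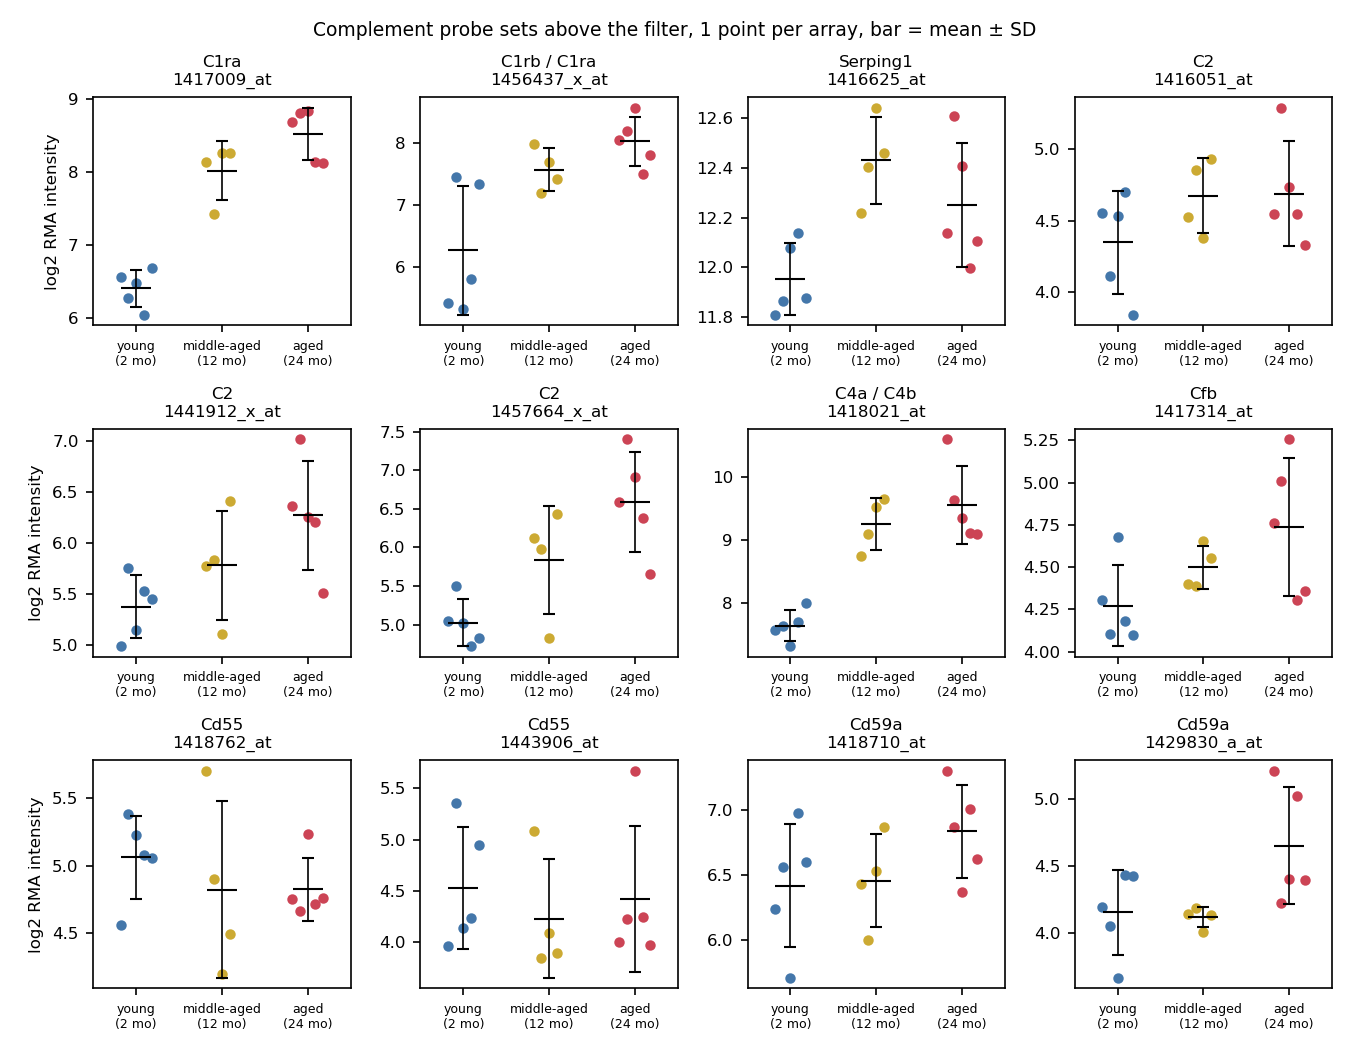
Log2 RMA intensity of the 12 complement probe sets above the filter, by age (young, middle-aged, aged), with 1 point per array and bars for the mean and SD. For the single-gene C1ra probe set and the C4a/C4b probe set all 9 middle-aged and aged points lie above all 5 young points, while the points of Cd55 and Cd59a overlap between young and aged.

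C1ra (Entrez 50909) showed the clearest difference. Its own probe set read 6.57, 6.28, 6.49, 6.05 and 6.69 on the young arrays 1 to 5, in log2 intensity. The middle-aged arrays 1 to 4 read 8.15, 7.43, 8.27 and 8.26, and the aged arrays 1 to 5 read 8.69, 8.82, 8.85, 8.14 and 8.13. All 9 older arrays exceeded the 5 young ones, and the middle-aged and aged values overlapped. The mean was 8.53 ± 0.36 (SD, n = 5) in aged and 6.41 ± 0.25 (n = 5) in young cells, a log2 change of 2.11 ± 0.21 (SE, limma adjusted p = 6.68e-05). Of all genes, 3.48% had aged arrays wholly above young ones and 3.62% had middle-aged arrays wholly above them. The share with both was not counted. Within array set 1 the change was 2.38 ± 0.30 and within set 2 it was 1.89 ± 0.30, both past the test (adjusted p = 0.00184 and 0.0105).

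A second probe set, annotated to both C1ra and its close relative C1rb, showed the same direction with a wider spread among young arrays. It read 5.43, 5.33 and 5.81 on young arrays 1, 3 and 4 but 7.45 and 7.34 on young arrays 2 and 5, which belong to set 2. The aged arrays ran from 7.50 to 8.57, so the gap between aged and the highest young array was small. Its log2 change was 1.75 ± 0.39 (adjusted p = 0.0202 over 24505 probe sets).

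C1s1, the protease that C1r activates and that cleaves C4 and C2, rose 5.91-fold in aged cells. Its single kept probe set, of a kind that can match several transcripts, read 9.15, 9.78, 10.27, 8.31 and 8.48 on the aged arrays, against 6.35, 7.31, 5.88, 6.78 and 6.85 on the young ones. No aged array overlapped a young one, and the log2 change was 2.56 ± 0.40 (adjusted p = 0.0016). It was 3.13 ± 0.59 within set 1 and 1.94 ± 0.59 within set 2, where the call was not reached (adjusted p = 0.136).

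C4 is the component that C1s cleaves and that binds covalently to the target. The probe set shared by C4a and C4b, which cannot say which copy was measured, read 7.59, 7.64, 7.32, 7.71 and 8.0 on young arrays. On middle-aged arrays it read 8.76, 9.09, 9.53 and 9.64, and on aged arrays 10.59, 9.63, 9.34, 9.12 and 9.09. All older arrays exceeded all young ones, and aged array 1 was the highest. Among all genes 3.48% had aged and 3.62% middle-aged arrays wholly above young ones, shares not counted over probe sets. Aged cells averaged 9.55 ± 0.62 and young cells 7.65 ± 0.24 (SD, n = 5 each). In a test of each kept probe set, in which 2.26% rose, the log2 change was 1.90 ± 0.26 (adjusted p = 0.00103), with 2.57 ± 0.27 within set 1 and 1.36 ± 0.27 within set 2.

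C2 (Entrez 12263), the protease that joins C4 in the classical C3 convertase, has 3 probe sets, and they did not give the same size of change. The brightest, which stands for the gene in the test, read 6.59, 7.40, 6.91, 6.38 and 5.65 on aged arrays, against 5.05, 5.50, 5.03, 4.72 and 4.82 on young ones. The lowest aged array thus lay just above the highest young one. Its change was 1.56 ± 0.32 (adjusted p = 0.0105). The second ran from 5.51 to 7.01 on aged and from 4.99 to 5.76 on young arrays (0.90 ± 0.27, adjusted p = 0.096). The brightest had a higher mean than the second in aged (6.59 against 6.27) and middle-aged cells (5.84 against 5.78). In young cells its mean was the lower of these (5.02 against 5.37). The choice of the brightest thus depended on the older arrays, and the C2 call in the main test came from it. The third ran from 4.33 to 5.29 on aged and from 3.84 to 4.70 on young arrays (0.34 ± 0.21, adjusted p = 0.481). The array's naming marks the brighter pair as probe sets whose probes may match other transcripts, and the third as unmarked. When such shared-sequence probe sets were left out, C2 had a change of 0.34 ± 0.21 and was not called (adjusted p = 0.456). The call was also not reached within set 2 (1.15 ± 0.46, adjusted p = 0.262) or without aged arrays 2 and 3 (1.18 ± 0.33, adjusted p = 0.0706).

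Cfb (Entrez 14962), the alternative pathway counterpart and genomic neighbour of C2, did not pass. Its values were 4.76, 5.01, 5.26, 4.31 and 4.36 on aged arrays, against 4.30, 4.11, 4.68, 4.18 and 4.10 on young ones. Aged arrays 1, 2 and 3 lay above all young arrays, and aged arrays 4 and 5 lay within the young range. The log2 change was 0.47 ± 0.19 (95% CI 0.07 to 0.86, adjusted p = 0.205).

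Serping1 (Entrez 12258), which encodes the inhibitor of C1r and C1s, averaged 12.25 ± 0.25 in aged and 11.95 ± 0.15 in young cells (SD, n = 5 each). It read 12.14, 12.61, 12.41, 12.00 and 12.10 on aged arrays, against 11.81, 11.86, 12.08, 12.14 and 11.88 on young ones. The groups overlapped, and the change of 0.30 ± 0.14 was not called (95% CI -0.01 to 0.60, adjusted p = 0.315). The interval for the inhibitor thus ended below that for its target C1ra, which ran from 1.67 to 2.55, although the difference between the genes was not itself tested.

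The membrane regulators gave no call. Cd55, which speeds the decay of C3 convertases, had 4 annotated probe sets, of which 2 were kept. The brighter of these ran from 4.67 to 5.24 on aged and from 4.56 to 5.38 on young arrays, a change of -0.23 ± 0.24 (95% CI -0.75 to 0.28, adjusted p = 0.698). The other kept probe set changed by -0.10 ± 0.36, with young arrays 2 and 5 at 5.36 and 4.95 against 3.97 to 4.23 on the other young arrays. The probe set shared with Cd55b was below the 40th percentile on all 14 arrays, and the fourth was above it on 3, of which 2 were young arrays 2 and 5.

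Cd59a encodes the surface protein that blocks assembly of the lytic membrane attack complex. Its brighter probe set read 7.31, 6.88, 6.37, 7.01 and 6.62 on aged arrays, against 6.24, 6.56, 5.70, 6.98 and 6.60 on young ones, and the groups overlapped. The change was 0.42 ± 0.24 (95% CI -0.09 to 0.93, adjusted p = 0.417). The dimmer probe set changed by 0.50 ± 0.20 (adjusted p = 0.239 over 24505 probe sets).

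**Figure D2:**
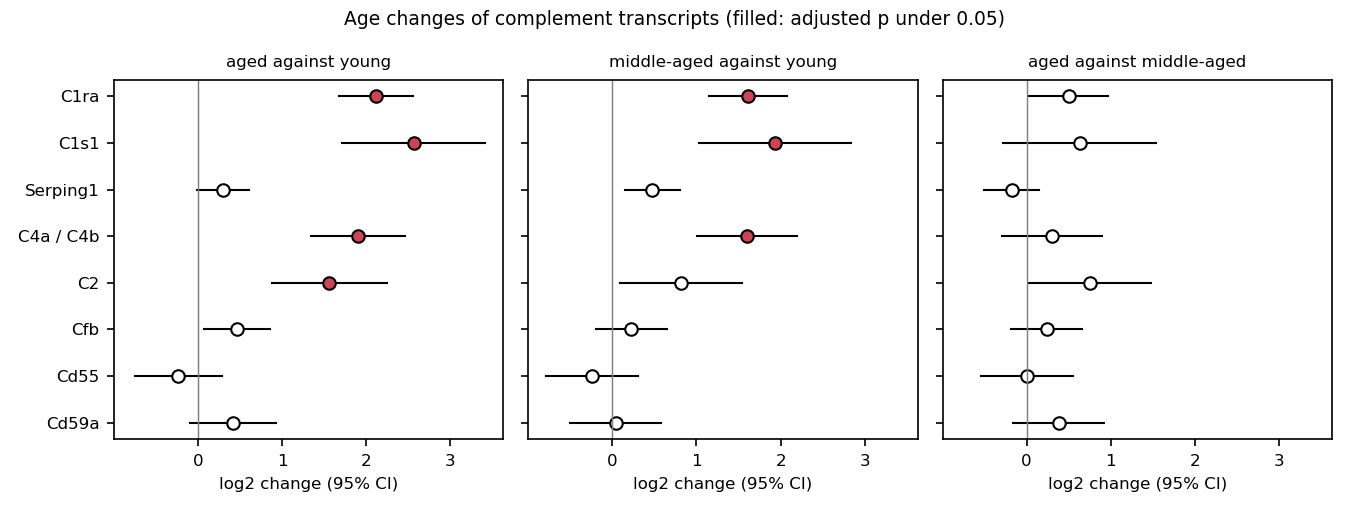
Log2 change with its 95% confidence interval for 8 complement transcripts in each pairwise age comparison, filled where the adjusted p was under 0.05. C1ra, C1s1 and the C4a/C4b probe set are filled in aged and in middle-aged against young cells, C2 only in aged against young, and no transcript is filled in aged against middle-aged.

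By 12 months the single-gene C1ra probe set, C1s1 and the C4a/C4b probe set already stood above young cells. Of the 6 genes tested, 1 rose and 0 fell, against 1.75% of all genes that rose and 1.22% that fell. C1ra averaged 8.03 ± 0.40 (SD, n = 4) in middle-aged and 6.41 ± 0.25 (n = 5) in young cells, a 3.06-fold rise (1.61 ± 0.22, adjusted p = 0.00117). The probe set that C1ra shares with C1rb ran from 7.19 to 7.98 on middle-aged arrays and overlapped the young ones (5.33 to 7.45). Its change of 1.30 ± 0.41 was not called (limma adjusted p = 0.135 over 24505 probe sets). C1s1 rose 3.82-fold (1.93 ± 0.43, adjusted p = 0.024), a call that ended without young array 1 or 3 or middle-aged array 3 or 4 (adjusted p = 0.0642, 0.069, 0.0966 and 0.0675). The C4a/C4b probe set rose 3.04-fold (1.60 ± 0.28, adjusted p = 0.00867), in a test in which 1.19% of probe sets rose. Set 2 holds a single middle-aged array, which the fit assumes to vary like the other groups, and only 7 of all genes were called there. In it the changes were 1.67 ± 0.40 for C1ra, 1.58 ± 0.79 for C1s1 and 0.93 ± 0.37 for C4.

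Serping1 reached its highest mean at 12 months. The middle-aged arrays read 12.22, 12.40, 12.64 and 12.46, all above the 5 young arrays, as were those of 3.62% of all genes. The change of 0.48 ± 0.15 against young cells was not called (adjusted p = 0.116), except when arrays were weighted (0.52 ± 0.13, adjusted p = 0.0254). C2 read 6.12, 5.98, 4.82 and 6.44 on middle-aged arrays, with middle-aged array 3 inside the young range, and changed by 0.81 ± 0.34 (adjusted p = 0.24). Cfb (0.23 ± 0.20), Cd55 (-0.24 ± 0.26) and Cd59a (0.04 ± 0.25) were not called.

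Aged against middle-aged cells gave 0 calls among the 6 genes and 0 among all 13579 in limma, where 1306 genes (9.62%) had an unadjusted p under 0.05. Among the 6 these were C1ra (0.50 ± 0.22, limma adjusted p = 0.486) and C2 (0.75 ± 0.34, adjusted p = 0.499). Serping1 was lower by a log2 difference of -0.18 ± 0.15, Cd55 differed by 0.00 ± 0.26 and Cfb by 0.24 ± 0.20. Cd59a differed by 0.38 ± 0.25 (adjusted p = 0.638), and its dimmer probe set by 0.53 ± 0.21 (adjusted p = 0.517 over 24505 probe sets). The step from 12 to 24 months minus that from 2 to 12 months was -1.11 ± 0.39 for C1ra (limma adjusted p = 0.266) and -0.66 ± 0.27 for Serping1 (adjusted p = 0.349). Of all genes 0 passed this test in limma, and 11.9% had an unadjusted p under 0.05, as these 2 of the 6 had. A difference between the steps was therefore not established.

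Of 48 further complement genes, 21 were measured, 1 rose and 0 fell in aged against young cells, where 3.05% of all genes rose and 1.25% fell. The same counts held in middle-aged against young cells, where 1.75% of all genes rose and 1.22% fell. A count of 1 in 21 is near those shares. The gene that rose was C1s1 in both. The median log2 change of the 21 was -0.02 in aged and 0.14 in middle-aged cells relative to young, against -0.05 and -0.04 for all genes. Among 8 measured genes that start the classical or lectin pathway, C1qa, a chain of the recognition protein C1q, changed by -0.05 ± 0.13 near the filter level, and Masp1, a lectin pathway protease, by 0.24 ± 0.33. Both other C1q chains, C1qb and C1qc, had no probe set above the filter. Colec11, a lectin that triggers complement, changed by 1.22 ± 0.49 without passing (adjusted p = 0.21). Its other kept probe set changed by -0.04, and those of Masp1 by -0.02 and 0.55, without a call.

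Of 7 terminal components only C6 was measured (-0.29 ± 0.13, adjusted p = 0.252). Among 9 measured regulators, Cr1l, the mouse membrane inhibitor Crry, changed by 0.53 ± 0.18 (adjusted p = 0.125), and the fluid-phase regulators Clu and Vtn by 0.23 ± 0.26 and -0.42 ± 0.18. The other kept probe sets of Cr1l and Vtn changed less, by 0.11 and -0.12. The anaphylatoxin receptors C3ar1 and C5ar1 changed by -0.25 ± 0.14 and -0.17 ± 0.14 (adjusted p = 0.394 and 0.6). Of the 48, 17 had their own probe sets all below the filter, 2 had only probe sets shared with other genes and 8 had none annotated here.

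**Figure D3:**
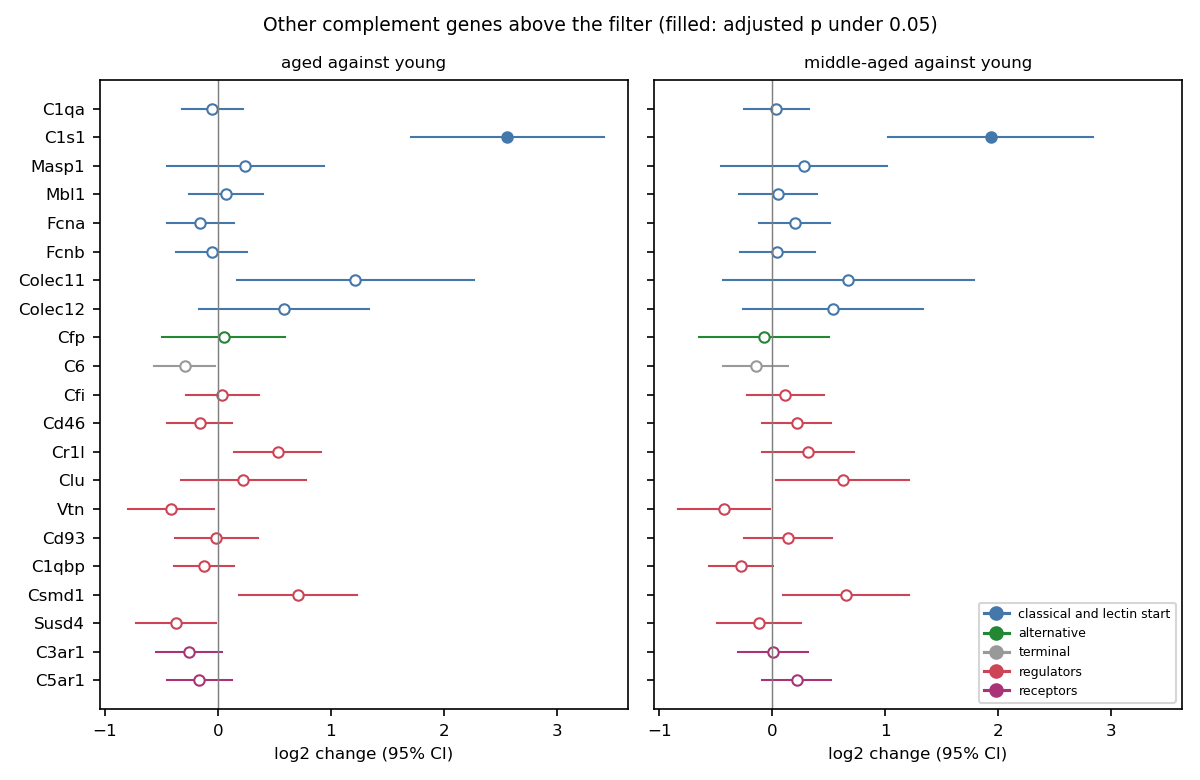
Log2 change with its 95% confidence interval for the 21 further complement genes above the filter, in aged and in middle-aged against young cells, coloured by role and filled where the adjusted p was under 0.05. C1s1 alone is filled in both panels, at 2.56 and 1.93, and the other 20 are open.

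Complement genes are known to be induced by inflammatory cytokines and the factors they activate. Of 8 measured genes in a list of such inducers, 2 rose in aged and the same 2 in middle-aged against young cells, against 3.05% and 1.75% of all genes. These were the cytokine Il6, with log2 changes of 3.29 ± 0.53 and 2.86 ± 0.56, and Cebpd, a C/EBP factor of the acute phase response, with 0.53 ± 0.12 and 0.65 ± 0.13 (adjusted p = 0.0189 and 0.012). Cebpd averaged 12.00 ± 0.15 in aged and 11.47 ± 0.15 in young cells. Il6 read 8.67 and 7.58 on young arrays 2 and 5, which belong to set 2, against 5.42 to 5.90 on the other young arrays. Its value on young array 2 lay just above that on middle-aged array 2, at 8.64. Irf1, an interferon regulatory factor, changed by 0.59 ± 0.18 (adjusted p = 0.0922), and Il1b, Tnf, Stat3, Rela and Cebpb lay between -0.08 and 0.14 in aged against young cells. Ifng and Ifnb1 were below the filter.

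Markers of some other cells also differed between ages. All 6 tenocyte markers were measured, and 5 rose in aged cells. Their summed intensity ran from 26310 to 51924 on aged and from 3588 to 10866 on young arrays. Their mean log2 value lay between 9.80 and 10.65 on aged arrays, between 9.52 and 11.03 on middle-aged arrays and between 6.91 and 8.24 on young arrays, and so parted young from older arrays as C1ra did. With that mean as a covariate, the change in aged against young cells was 1.30 ± 0.50 for C1ra, -0.28 ± 0.68 for C1s1, 1.01 ± 0.65 for the C4 probe set and 2.07 ± 0.84 for C2. In that fit the standard errors were wider and 0 of 13579 genes were called, so age and tenocyte marker level cannot be told apart here.

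Of 6 measured fibroblast and fibro-adipogenic markers out of 7, only Dcn was called, and it rose. Changes were positive for 3 of the 6, while Col1a1, Col3a1 and Dpt changed by -0.52 ± 0.49, -0.88 ± 0.28 and -0.46 ± 0.15. Their mean differed by 0.18 (exact two-sided permutation p = 0.468). The summed intensity of the 6 ran from 15244 to 26202 on aged and from 13905 to 20007 on young arrays. Among 6 measured macrophage and myeloid markers out of 9, Cd14 rose, with sums of 356 to 923 on aged and 205 to 316 on young arrays. All 5 mature myofibre markers rose, with sums of 2115 to 5411 on aged and 567 to 1596 on young arrays. In middle-aged against young cells 0 of these 5 were called, and their mean differed by 0.60 (exact two-sided permutation p = 0.222). Among 4 pericyte markers Pdgfrb rose, with sums of 1012 to 1253 on aged and 147 to 376 on young arrays. The mean log2 value of the pericyte markers ran from 5.12 to 6.30 on young and from 6.49 to 7.94 on older arrays. That of the myeloid markers ran from 4.82 to 5.10 on young and from 5.11 to 5.79 on older arrays. Both means thus also parted young from older arrays, as the tenocyte mean did. The satellite cell markers were lower in their mean by -0.56 in aged cells (exact two-sided permutation p = 0.00794, the smallest that 252 arrangements allow), with sums of 12203 to 16304 on aged and 13620 to 18081 on young arrays and 1 of 8 called, Calcr, which fell. Endothelial markers, 3 of 5 measured, did not differ in their mean beyond the spread (-0.25, exact permutation p = 0.587), with sums of 93.2 to 393 on aged and 265 to 327 on young arrays, but 1 of the 3, Tek, fell (-1.18 ± 0.31, limma adjusted p = 0.04). The part of these lists in the complement results was not tested.

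A measure of RNA quality differed between ages by less than its test required. The signal of the 3' control probe sets over the 5' ones, averaged over Actb and Gapdh in log2 units, was 3.54 ± 0.51 on aged and 4.30 ± 0.54 on young arrays (SD, n = 5 each, exact two-sided permutation p = 0.0714). With it as a covariate, the changes were 2.06 ± 0.27 for C1ra (adjusted p = 0.00181), 2.54 ± 0.52 for C1s1 (0.0193) and 2.25 ± 0.31 for the C4 probe set (0.00245). C2, at 1.45 ± 0.41, was no longer called (adjusted p = 0.0717).

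**Figure D4:**
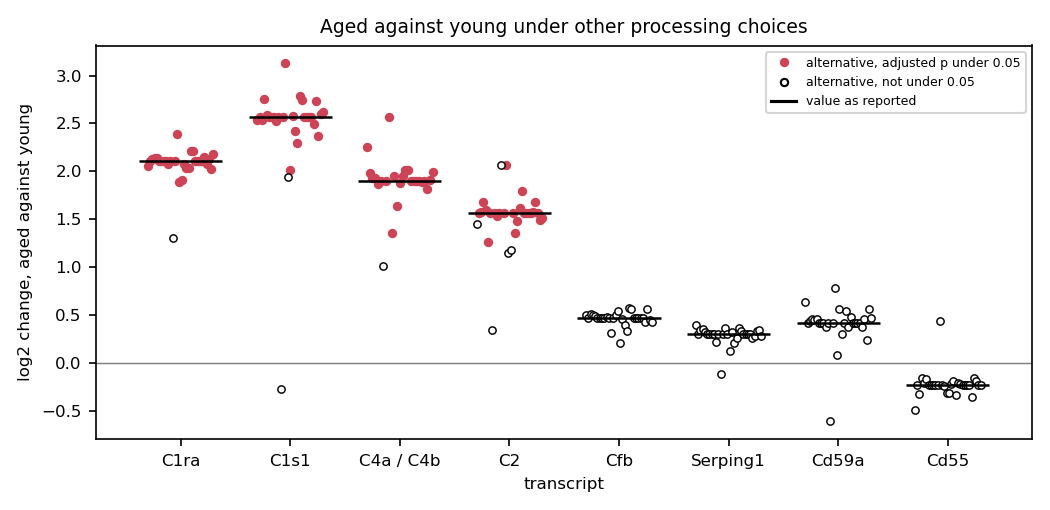
Log2 change in aged against young cells under each processing alternative (points, filled where the adjusted p was under 0.05) and as reported (line), for 8 complement transcripts. The C1ra points lie between 1.30 and 2.38, those of C2 between 0.34 and 2.07 and those of C1s1 between -0.28 and 3.13, and no point of Cfb, Serping1, Cd59a or Cd55 is filled.

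The genes whose levels followed each complement gene most closely over the 14 arrays differed from member to member. For C1ra they were Tac1, Il33 and Timp1, which encode a neuropeptide precursor, an alarmin cytokine and a metalloproteinase inhibitor (Pearson r = 0.97, 0.96 and 0.96, and 0.80, 0.60 and 0.54 after centring by age). For Serping1 they were Slfn5, Bgn and Hivep2 (0.93, 0.93 and 0.91, and 0.89, 0.86 and 0.84 after centring). For C2 they were Fez2, Nrcam and Ebf1 (0.84, 0.83 and 0.82). Cfb was closest to Dnajc1, Fam167a and Adgrd1 (0.88, 0.87 and 0.87), Cd55 to Tlk1, N4bp2 and Rbm20 (0.84, 0.83 and 0.82) and Cd59a to Gfra3, S100b and Eif2s3x (0.88, 0.82 and 0.78). These are the highest of 13579 genes over the same arrays, which share their normalization, and describe likeness only.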

How the data were processed

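RNA of sorted muscle precursor cells was measured on 14 Affymetrix arrays, labelled with the 3'IVT Express kit per the labels' protocols. The authors made the deposited intensities with RMA, per the submitters' processing notes, and left them linear. No RMA version or genome build is given in these sources. Their log2 was taken here with no further normalization. Symbols came from the platform annotation, and 34741 of 34945 single-gene probe sets matched RefSeq by Entrez identifier. Controls and probe sets annotated to several genes (932) or none (9160) stayed out of the gene test. The filter kept 23887 probe sets, and the brightest stood for each gene. Age group was the only factor in 1 fit of all 14 arrays (limma 3.58.1, R 4.3.3), with Benjamini-Hochberg adjustment over all 13579 genes and calls at an adjusted p under 0.05. Probe sets of several genes were tested in a second fit of 24505 probe sets. Errors of changes are moderated standard errors. The fit was tested on simulated data. Arrays have no counting depth, and their number limits the precision. Named were all 8 genes, every called gene of the further complement and inducer lists, the defining cell markers, and the 3 genes most correlated with each member. Genes of those lists named without a call, and called markers, were chosen after their values were seen. The members and lists were chosen with earlier results of these data known. Alternatives changed the filter, probe set choice, normalization, variance model, array weights, covariates, block and arrays used. The fit of several-gene probe sets, the tenocyte covariate, the fit without aged arrays 2 and 3 and all alternatives for the C4 probe set were added after the data were seen.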

Additional observations from a re-analysis of the deposited data

Results flagged for a closer look

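Among 39 groups of complement values checked for an array far from the others, 3 held one, where chance alone marks about 1 in 20 groups. C1ra on middle-aged array 2 stood at 7.43, below the other middle-aged arrays at 8.15 to 8.27. Without that array the change of C1ra in middle-aged against young cells was 1.81 ± 0.21 (adjusted p = 0.000532). Aged array 3 stood high for both kept probe sets of Cd55, at 5.24 against 4.67 to 4.76 on the other aged arrays and at 5.67 against 3.97 to 4.25. Without it the Cd55 change in aged against young cells was -0.34 ± 0.25 (adjusted p = 0.587).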

How the results depend on the processing

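The rise of C1ra in aged against young cells held its call under 29 of 30 alternatives, that of C2 under 25 of 30, that of C1s1 under 27 of 29 and that of the C4a/C4b probe set under 24 of 25. C1s1 has no value without shared-sequence probe sets, as its only kept probe set is of that kind. In aged against young cells, 1 of the 6 genes was called without shared-sequence probe sets, with the 3' minus 5' covariate, within array set 2 and without aged arrays 2 and 3, 0 with the tenocyte covariate, and 3 with several-gene probe sets included. In middle-aged against young cells the count was 2 with several-gene probe sets included and with array weights, and 0 within set 2, which holds 1 middle-aged array, and with the tenocyte covariate. Leaving out each array in turn left the counts at 2 and 1, and at 0 in aged against middle-aged and for the difference between steps. Over all alternatives the calls among all genes ran from 0 to 976 (aged against young) and from 0 to 1153 (middle-aged against young).

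Changes of sign touched only genes that were not called, apart from C1s1. With the tenocyte covariate the aged against young changes were -0.12 for Serping1, 0.44 for Cd55, -0.61 for Cd59a and -0.28 for C1s1, and the middle-aged against young changes 0.44 for Cd55, -0.99 for Cd59a and -0.91 for C1s1. The cause was not tested. Within set 2, middle-aged against young gave 0.48 for Cd55 and -0.15 for Cd59a. Cd55 in aged against middle-aged cells was -0.10 with the 3' minus 5' covariate, -0.16 with a term for the array set, -0.80 within set 2 and -0.081 without aged arrays 2 and 3, where Cfb was -0.024. Leaving out single arrays moved Cd55 there between -0.21 and 0.30, and Cd59a in middle-aged against young between -0.14 and 0.19.

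The titles number replicates without saying what the numbers share, and same-numbered arrays of different ages deviated together (correlation over 0.1) in 5 of 13 pairs (-0.48 to 0.26). With the replicate number as a block the counts of members called were 2 and 1, as without it. With the block C1s1 (1.87 ± 0.47, adjusted p = 0.0809) and the C4 probe set (1.59 ± 0.33, adjusted p = 0.0577) were not called in middle-aged against young cells. Probe sets near the 40th percentile (the dimmest of C2, Cfb, Cd55, C1qa) are close to background and limit what can be seen of these genes.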

Other observations

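Some complement transcripts varied together among arrays of the same age, over 14 arrays and as a description only. After centring by age, Pearson's r was 0.71 between Serping1 and Cfb, 0.66 between C1ra and C1s1 and 0.65 between C1ra and Cfb. C1ra and C2, which both rose with age (r = 0.79 over all arrays), had 0.30 after centring. Cfb and Cd59a had -0.40, and C2 and Cd59a -0.003.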
